A study of Mus musculus with 19 samples.

Results

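The 200 most abundant antisense and bidirectional-promoter noncoding RNAs of mouse MII oocytes and 2cell embryos were examined across CPEB3 genotypes. They were chosen from 1286 genes that the deposited table annotates as antisense (1172) or bidirectional_promoter_lncRNA (114), of 25891 genes in all, as the 200 with the highest mean over the 19 libraries. The chosen RNAs comprised 167 antisense and 33 bidirectional genes. The values are FPKM, fragment numbers divided by the length of the transcript and the size of the library, a scale on which levels of genes of different length can be compared. Because the choice was made on the mean level, the levels below are a description. An RNA that is high in a single group of libraries can also enter by its mean, so the number that differs between groups is not independent of the choice.

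Poly(A) RNA from small pools of cells was amplified and sequenced in 5 CPEB3+/- MII, 5 CPEB3-/- MII, 5 CPEB3+/- 2cell and 4 CPEB3-/- 2cell libraries. The oocytes came from superovulated BL6 females aged 6 to 10 weeks, and the 2cell embryos from zygotes of mated females cultured in M16 medium and collected 37 h after hCG. The genotype given here for 2cell embryos is that of the oocytes they came from. For embryo development the study mated knockout females with wild-type males, so embryos called CPEB3-/- here can carry an intact paternal Cpeb3 allele. In the knockout females, loxP-flanked Cpeb3 is removed by Cre under the Zp3 promoter, which is active in growing oocytes. The study's methods describe a genotype with the same Cre and a single loxP-flanked allele, which they call wild type. The study's results name the sequenced controls CPEB3+/-, labelled Het here. That the Het libraries carry this Cre is inferred and not stated. The labels do not say which libraries came from separate females, so p-values measure the spread between these libraries, which may be technical. The study reports that Cpeb3 mRNA was absent from knockout oocytes by PCR and that CPEB3 protein was significantly reduced by immunoblot. In the sequencing values, Cpeb3 RNA was low and did not fall in the libraries labelled KO. It was 0.0755 ± 0.0240 FPKM (SD, n = 5) in CPEB3+/- and 0.162 ± 0.0325 FPKM (n = 5) in CPEB3-/- MII oocytes (two-sided exact permutation test, p = 0.00794), and 0.0303 ± 0.0149 (n = 5) against 0.0554 ± 0.0129 FPKM (n = 4) in 2cell embryos (p = 0.0476). The values are of the whole gene and do not show whether the loxP-flanked part is missing, so whether the labels are right was not tested by them. Zscan4 RNA went in the direction that the labels give. By immunoblot, the study reports raised ZSCAN4 protein in knockout MII oocytes, a candidate it had picked from the sequencing results. Zscan4c, Zscan4d and Zscan4f were higher in the MII libraries labelled KO, by 2.24, 2.89 and 1.63 on the log2 scale. The labels were not tested further, and CPEB3+/- and CPEB3-/- below mean the libraries labelled so. All 11 listed oocyte and 11 listed 2cell markers were in the table, and each set had its higher sums in the stage it marks (oocyte markers at least 674 FPKM in MII and at most 257 FPKM in 2cell libraries, 2cell markers at most 62.7 and at least 493 FPKM). Of 8 cumulus and granulosa cell markers in the table of 11 listed, the sum stayed between 0.132 and 0.672 FPKM in every library. Of the 7 blood markers, 3 were in the table, and Hba-a1 and Hba-a2, alpha-globin genes, carried 46.2 to 146 FPKM together with Lyz2 in the 2cell libraries but at most 0.428 FPKM in MII. Their part in the results was not tested.

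Antisense RNAs are transcribed from the strand opposite to a coding gene, and bidirectional-promoter RNAs start close to a coding gene's start and run away from it. Many are short-lived, since the nuclear exosome and its cofactors degrade unstable transcripts of divergent promoters, and some regulate the gene they oppose. In mouse oocytes, antisense transcripts can pair with coding transcripts, and Dicer cuts such double-stranded RNA into endogenous small interfering RNAs. An MII oocyte is transcriptionally silent and lives on stored RNA, whereas the 2cell embryo activates its own genome, a phase in which divergent and antisense transcription has been widely described.

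A set of 4 head-to-head pairs shows what a bidirectional arrangement looks like, and their noncoding RNAs carry several of the differences described further on. The bases between the 2 start sites were read from the RefSeq promoter table (build GRCm38.p6, in which 73 members and the neighbours of 162 members were matched by symbol). Each is printed 5′ to 3′ on the strand of the noncoding RNA, so that it ends 1 base before that RNA begins, and capitals mark the CCAAT motif (CCAAT or ATTGG) and the GC box (GGGCGG or CCGCCC).
AV356131 with Pik3c2a, chr7:116443459-116443574, plus strand: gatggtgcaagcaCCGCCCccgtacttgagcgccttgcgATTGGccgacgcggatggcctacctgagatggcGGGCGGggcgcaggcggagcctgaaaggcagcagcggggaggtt
AC113006.1 with Thap7, chr16:17531137-17531181, plus strand: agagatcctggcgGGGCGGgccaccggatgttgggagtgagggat
Gm20337 with Srsf5, chr12:80945397-80945498, minus strand: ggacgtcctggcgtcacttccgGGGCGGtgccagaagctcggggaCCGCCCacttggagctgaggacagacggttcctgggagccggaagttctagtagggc
D430020J02Rik with Ncapg2, chr12:116405211-116405401, minus strand: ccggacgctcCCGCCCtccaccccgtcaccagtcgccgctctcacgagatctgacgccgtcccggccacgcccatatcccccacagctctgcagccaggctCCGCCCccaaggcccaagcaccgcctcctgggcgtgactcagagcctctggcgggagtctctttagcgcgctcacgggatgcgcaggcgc
The 4 stretches were 116, 45, 102 and 191 bases long, with a GC content of 69.0%, 66.7%, 66.7% and 71.2%. They were picked, from 27 such pairs with starts within 250 bases and no body overlap, for the differences described below, and so show nothing about the pairs at large. Each held at least 1 GC box, which windows of these lengths upstream of the 32851 RefSeq starts held in 26.2%, 14.4%, 24.9% and 30.7% of cases. The CCAAT motif was found in the AV356131 stretch alone, against 20.8% of windows of its length, and TATAAA (or TTTATA) in none of the 4. These matches describe letters and show no bound factor.

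The 33 bidirectional RNAs started 31 to 1080 bases (median 165) from the start of their coding neighbour. Among the antisense RNAs, 146 overlapped the body of a coding gene on the other strand, by 7 to 27309 bases (median 1410), and 19 were paired with the nearest opposite start site within 100 kb. Gm15941 and Gm30214 had no coding neighbour by this rule, and the other 198 members had 194 distinct neighbours. Exon positions were known for 197 members. Their exon length was 183 to 9734 bases (median 1117), 57 had a single exon, and the GC content of the longest transcript had a median of 50.3%. For 127 of these 197, some exon bases lay on exons of a coding gene, and for 24 more than 50% did. The amplification kit does not keep the strand and whether the quantification used strand is not stated, so for these RNAs reads of the coding gene and of its antisense partner cannot be told apart. The remaining 70 had no exon base on a coding exon, and main results are given for them too.

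The mean level of the 200 RNAs ran from 0.335 to 26.1 FPKM with a median of 1.0. The first stood at the 97.8th percentile of all genes and the last at the 65.8th, 100 reached 1 FPKM and 14 reached 5 FPKM. The lowest members, 1700030A11Rik and Ndufb1-ps, and the highest RNA left out, Gm46411, all had 0.335 FPKM, and Gm14966 followed with 0.334 FPKM. The coding neighbours had a median of 0.296 FPKM, and 145 of the 198 paired members had a higher mean than their neighbour. No listed imprinted or X-linked antisense RNA (Kcnq1ot1, Airn, Tsix, Nespas, Peg13, Snhg14, Jpx, Ftx) was among the members, and Snhg9 was the only host gene of small nucleolar RNAs among them by symbol.

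**Figure D1:**
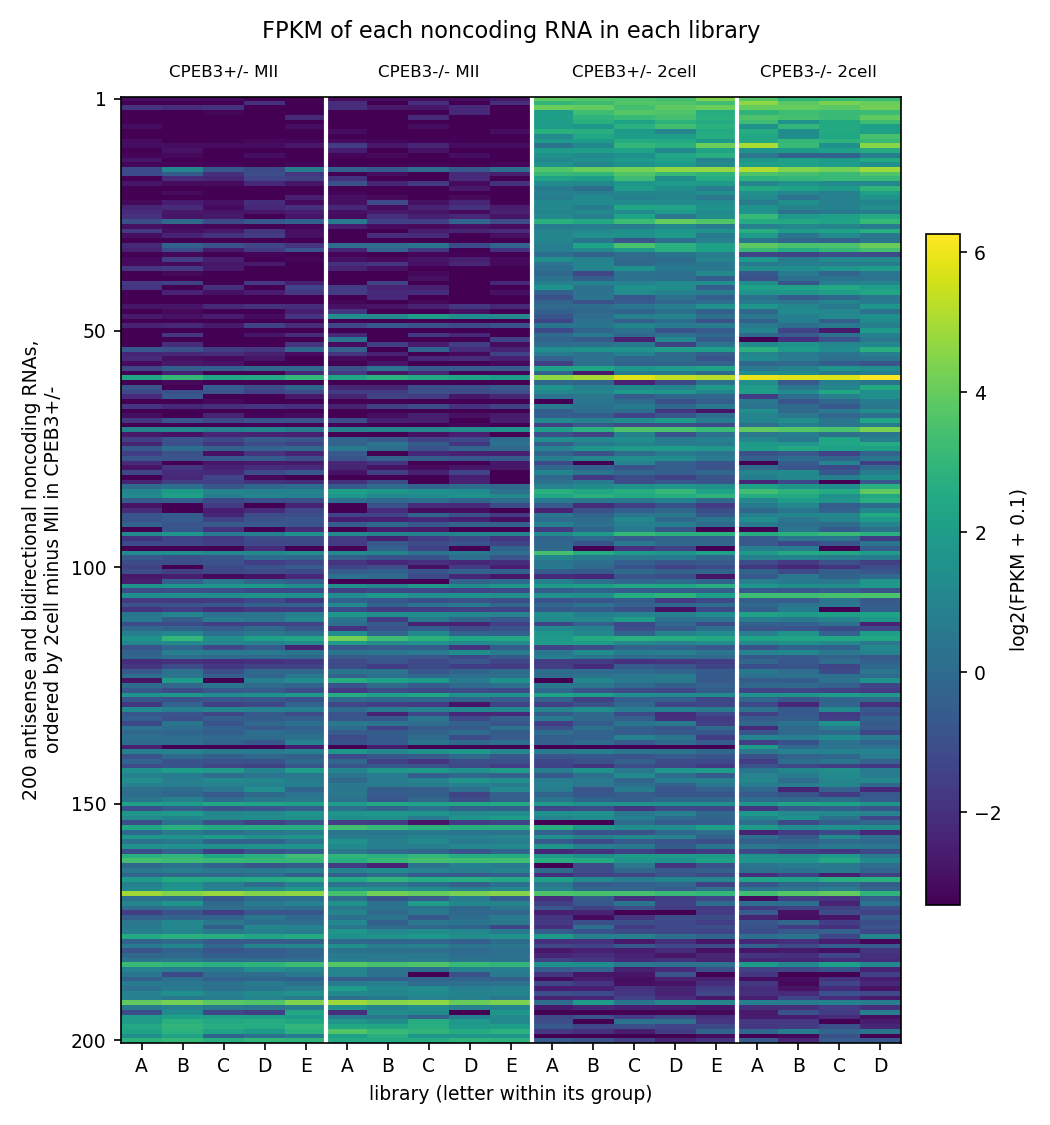
Each row is 1 of the 200 noncoding RNAs and each column 1 of the 19 libraries, with log2(FPKM + 0.1) as colour; rows are ordered by the CPEB3+/- difference between 2cell and MII, and white lines separate the 4 groups. The upper rows are dark in all 10 MII libraries and light in the 9 2cell libraries, the lowest rows the reverse, and the genotypes of a stage look alike beside this.

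The most abundant RNA was AV356131, which starts head to head with Pik3c2a, a phosphoinositide kinase gene. It measured 5.02, 8.22, 4.90, 5.44 and 8.04 FPKM in CPEB3+/- MII and 4.91, 6.81, 5.45, 4.45 and 3.66 FPKM in CPEB3-/- MII libraries. In 2cell embryos it measured 24.4, 32.0, 55.7, 41.3 and 37.5 FPKM with CPEB3+/- and 62.6, 54.9, 54.0 and 76.2 FPKM with CPEB3-/-. The 2cell libraries were all above the MII libraries, and the 2cell genotypes overlapped in 1 value, the CPEB3+/- library C. Gm15629, antisense to the L-plastin gene Lcp1, had its highest levels in MII instead, at 22.3 to 29.4 FPKM in CPEB3+/- and 10.9 to 22.5 FPKM in CPEB3-/- oocytes, and lay between 7.42 and 15.3 FPKM in the 9 2cell libraries. Lcp1 itself did not exceed 0.131 FPKM in any library.

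Gm32031 overlaps the start of Spty2d1, a chromatin protein gene on whose exons 43.3% of its own exon bases lie, and was also higher in MII, at 12.6 to 28.8 FPKM in the 10 MII and 0.971 to 3.86 FPKM in the 9 2cell libraries. C330013E15Rik, head to head with Dazap2, followed the same order, with 8.05 ± 1.08 FPKM (SD, n = 5) in CPEB3+/- MII and 1.73 ± 0.775 FPKM (n = 5) in CPEB3+/- 2cell libraries. 2900093K20Rik, Gm13068 and AC113006.1 had the reverse order. Gm13068, antisense to the mitochondrial nucleotide carrier gene Slc25a33, was at most 0.172 FPKM in any MII library and 10.6 to 18.5 FPKM in every 2cell library. Of the other members among the first 10, Gm47877 (antisense to Chrnb4) was higher in MII, Gm29361 (antisense to the splicing gene Rbm25) was higher in 2cell, and Gm37696 (antisense to Rap2b) had overlapping ranges in all 4 groups.

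**Figure D2:**
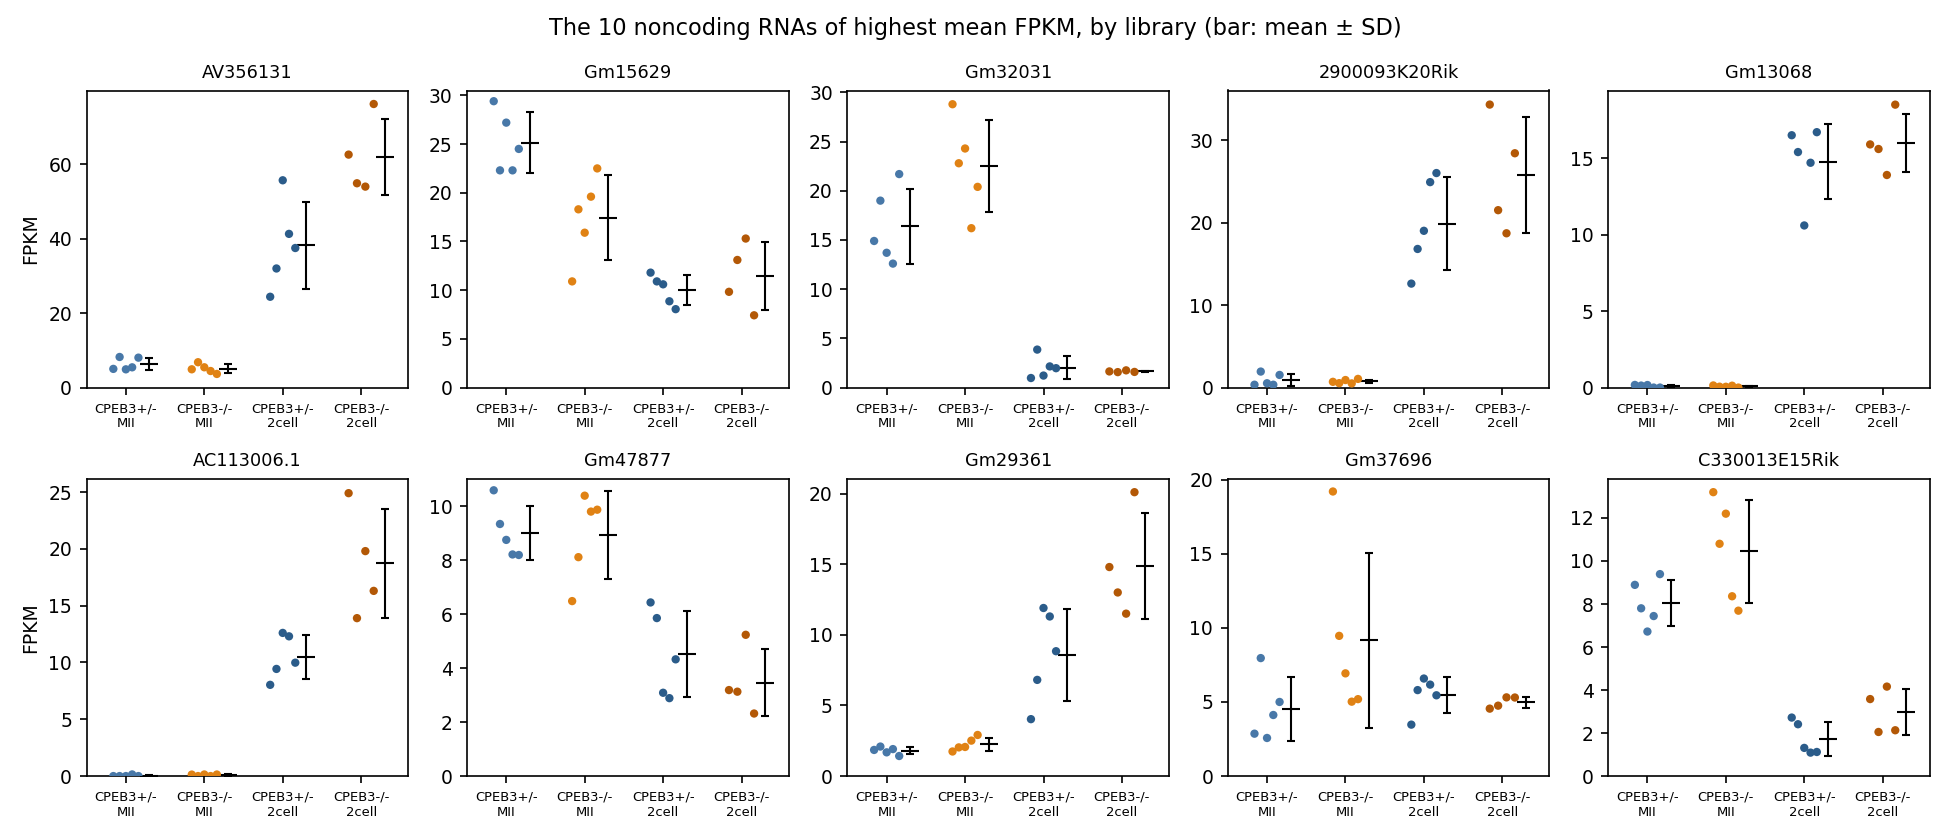
FPKM (vertical axis, from 0) of the 10 noncoding RNAs with the highest mean, 1 point per library, in the 4 groups; bars give mean ± SD. AV356131, 2900093K20Rik, Gm13068, AC113006.1 and Gm29361 are higher in all 2cell than in all MII libraries, Gm15629, Gm32031 and C330013E15Rik lower in the 2cell libraries of CPEB3+/- than in its MII libraries.

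Most of these RNAs changed between the MII oocyte and the 2cell embryo. The stages were compared in the CPEB3+/- libraries alone, with limma on log2(FPKM + 0.1), and a gene was called where the adjusted p was under 0.05 and the difference exceeded 1.5-fold. Of the 194 members that passed the filter of 0.1 FPKM in 5 libraries, 97 were higher and 52 lower in 2cell embryos. Over all 12684 genes tested, 38.9% were called higher and 30.3% lower. The median log2 difference was 0.73 for the members, 1.48 for the 32 bidirectional members tested and 0.14 for all genes. An RNA seen in only 1 stage could pass the filter there alone and then had to differ, so these counts describe the members and do not set them apart. With scaling to the column sum, which moved the median of all genes to -0.41, the split became 82 higher and 70 lower.

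The largest rises were from next to nothing in the oocyte. Gm16222, antisense to the sodium-glucose cotransporter family gene Slc5a4b, was at most 0.0259 FPKM in the CPEB3+/- MII libraries and 14.9, 12.6, 11.6, 10.4 and 21.0 FPKM in the CPEB3+/- 2cell libraries. AC113006.1, which starts beside the transcriptional repressor gene Thap7, was listed at 0 in 4 of 5 CPEB3+/- MII libraries and at 8.03, 9.43, 12.6, 12.3 and 9.98 FPKM in 2cell embryos. Snhg9, antisense to the ribosomal protein gene Rps2, was listed at 0 in 4 of 5 CPEB3+/- MII libraries and lay between 4.23 and 10.6 FPKM in 2cell embryos. The fitted log2 differences of 6.85 ± 0.194 (SE), 6.39 ± 0.254 and 5.93 ± 0.274 for these 3 RNAs depend on the added 0.1 FPKM and are no bound. Gm29542 rose as well (9.01 ± 3.96 FPKM in 2cell, n = 5, and at most 0.0138 in MII, CPEB3+/-), but 100% of its exon bases lie on exons of Cbll1, a ubiquitin ligase gene.

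The largest falls began from several FPKM. Gm16144, antisense to the annexin gene Anxa2, measured 7.18, 8.31, 6.08, 7.98 and 7.36 FPKM in CPEB3+/- MII and 0.568, 0.446, 0.271, 0.0986 and 0.173 FPKM in CPEB3+/- 2cell libraries (log2 difference -4.40 ± 0.297, adjusted p = 9.91e-08, limma). Gm47512, which overlaps the start of Tspyl4, fell by 4.08 on the log2 scale (SE 0.370, adjusted p = 1.18e-06), and D830035M03Rik, which overlaps the start of the initiation factor gene Eif1b, by 3.90 (SE 0.162, adjusted p = 1.97e-09). For both, every CPEB3+/- 2cell library was below every MII library. Gm28221 fell too, by 4.16 (SE 0.369), but 100% of its exon bases lie on exons of Ncald.

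In MII oocytes, 143 members passed the filter for the comparison of CPEB3-/- with CPEB3+/-, and 13 were higher and 18 lower in CPEB3-/-. Of all 10515 genes tested, 5.56% were called higher and 7.29% lower. The median log2 difference was -0.13 for the members and 0.01 for all genes. The genotypes did not overlap in 24 of the 143 (16.8%), against 16.3% of all genes. Of the 31 called, 4 (4930458D05Rik, 4930515G01Rik, Gm15541 and Gm42596) reached 0.1 FPKM in at most 1 library of their lower group, so that they passed the filter through the other group and had to differ. By type, 11 antisense RNAs were higher and 15 lower, and 2 bidirectional RNAs were higher and 3 lower. Among the 46 tested without an exon base on a coding exon, 2 were higher and 9 lower. The direction of this balance depended on single libraries and on the scaling. Without CPEB3-/- library D it was 18 higher and 13 lower, without E 16 higher and 14 lower, and without B 12 and 12. With the GC trend removed it was 8 higher and 20 lower. With the FPKM as deposited it was 16 higher and 11 lower, and with scaling to the column sum, which moved the median of all genes to 0.15, it was 18 higher and 10 lower. Of the 31 calls, 24 and 23 were made again in those fits and 0 in the opposite direction. A few stage markers differed with the genotype in MII as well, and their part in these calls was not tested. The 11 oocyte markers summed to 853 to 1060 FPKM in CPEB3+/- and 674 to 782 FPKM in CPEB3-/- libraries (0 higher and 2 lower of 11 tested), and the 11 2cell markers to 38.0 to 45.4 and 46.7 to 62.7 FPKM (3 higher and 0 lower of 7 tested). The lower oocyte markers were Mos (means of 214 and 67.5 FPKM) and Oog1 (60.7 and 24.0 FPKM), while Zp1, Zp3, Nlrp5, Npm2 and Padi6 had positive log2 differences without a call. The higher 2cell markers were all Zscan4 copies (Zscan4c, Zscan4d and Zscan4f).

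The strongest difference in MII was that of 4930458D05Rik, which overlaps the start of the glycerol-3-phosphate acyltransferase gene Gpat3 on the other strand. It measured 0.0614, 0.0375, 0.0663, 0.0229 and 0.177 FPKM in CPEB3+/- and 2.48, 2.17, 3.75, 2.44 and 2.20 FPKM in CPEB3-/- oocytes. Every CPEB3-/- library was above every CPEB3+/- library (log2 difference 3.93 ± 0.221, adjusted p = 8.48e-06, limma). Gpat3 was at most 0.0814 FPKM in the 10 MII libraries and did not pass the filter there. It passed the filter through its CPEB3-/- libraries, since 4 of the 5 CPEB3+/- values lie under 0.1 FPKM, and an RNA that enters in this way had to differ, so its fitted values describe the libraries and do not count as support.

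Dnmt3aos lies antisense to Dnmt3a, the de novo DNA methyltransferase that methylates the oocyte genome. It measured 0.232, 0.421, 0.243, 0.478 and 0.485 FPKM in CPEB3+/- and 1.83, 0.874, 1.29, 0.839 and 0.790 FPKM in CPEB3-/- MII oocytes, with no overlap (log2 difference 1.27 ± 0.226, adjusted p = 0.00459). This call was lost with a pseudocount of 1. Dnmt3a did not pass the test (0.19 on the log2 scale, adjusted p = 0.443) and had overlapping ranges of 0.299 to 0.657 and 0.442 to 0.713 FPKM. B230354K17Rik overlaps the start of the spliceosome gene Cdc5l, with 1.79% of its exon bases on Cdc5l exons and 17.8% on exons of any coding gene, so that reads of the genes cannot be told apart there. It had 0.130 ± 0.0764 FPKM (n = 5) in CPEB3+/- and 0.401 ± 0.0788 FPKM (n = 5) in CPEB3-/- oocytes (log2 difference 1.10 ± 0.206, adjusted p = 0.00598). Cdc5l was the 1 neighbour called in the same direction as its member in MII, with 0.0538 to 0.604 FPKM in CPEB3+/- and 2.68 to 4.29 FPKM in CPEB3-/- libraries (log2 difference 3.56, adjusted p = 0.000196).

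Gm13269, antisense to the calcium channel gene Cacnb2, and Gm6598, antisense to Tmem248, were higher by 0.84 ± 0.133 (adjusted p = 0.00253) and 0.81 ± 0.148 (adjusted p = 0.00530) on the log2 scale, again with no overlap between genotypes. The call of Gm49030 (0.91 ± 0.261, adjusted p = 0.0337) was weaker. It was lost without any one of 4 CPEB3+/- (A to D) or 2 CPEB3-/- (C and D) libraries, with an adjusted p of up to 0.0805, and with the GC trend removed (0.73, adjusted p = 0.0562).

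Of the RNAs lower in CPEB3-/- oocytes, Gm15541, antisense to the periaxin gene Prx, measured 0.453, 0.583, 0.258, 0.423 and 0.482 FPKM in CPEB3+/- and 0.0729, 0.0843, 0.113, 0.0793 and 0.0338 FPKM in CPEB3-/- libraries (log2 difference -1.66 ± 0.166, adjusted p = 0.000218). Prx was listed at 0 in all 10 MII libraries. Gm42650, in the body of the Egf gene with no exon base on its exons, measured 3.48, 4.18, 4.38, 4.25 and 3.75 FPKM against 1.47, 1.30, 0.711, 1.67 and 2.16 FPKM (log2 difference -1.56 ± 0.242, adjusted p = 0.00221). Gm12195, in the body of the Rab regulator gene Tbc1d9b, measured 5.67, 6.73, 6.13, 4.79 and 5.81 FPKM against 2.71, 2.91, 3.31, 2.58 and 2.77 FPKM (log2 difference -1.10 ± 0.111, adjusted p = 0.000218). In all 3 the genotypes were apart. Gm15541 passed the filter through its CPEB3+/- libraries and had to differ, so its p is no support, whereas the calls of Gm42650 and Gm12195 were made again in every fit that leaves out 1 library.

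Gm42596, which overlaps the start of Fbrsl1, was lower by 1.56 on the log2 scale (SE 0.306, adjusted p = 0.00745) at levels of at most 0.555 FPKM. It too passed the filter through its CPEB3+/- libraries, so its fitted values are a description. Gm47027, in the body of the scaffold gene Grip1, and Gm45885, head to head with Fam160a2, were lower by 0.97 (SE 0.151, adjusted p = 0.00232) and 0.90 (SE 0.140, adjusted p = 0.00226). Gm15629, the second most abundant member, had a log2 difference of -0.66 ± 0.210 (adjusted p = 0.0482). Its genotypes overlapped in part, and the call was lost without CPEB3+/- library A, C, D or E or CPEB3-/- library A, B or C, with an adjusted p of up to 0.112.

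**Figure D3:**
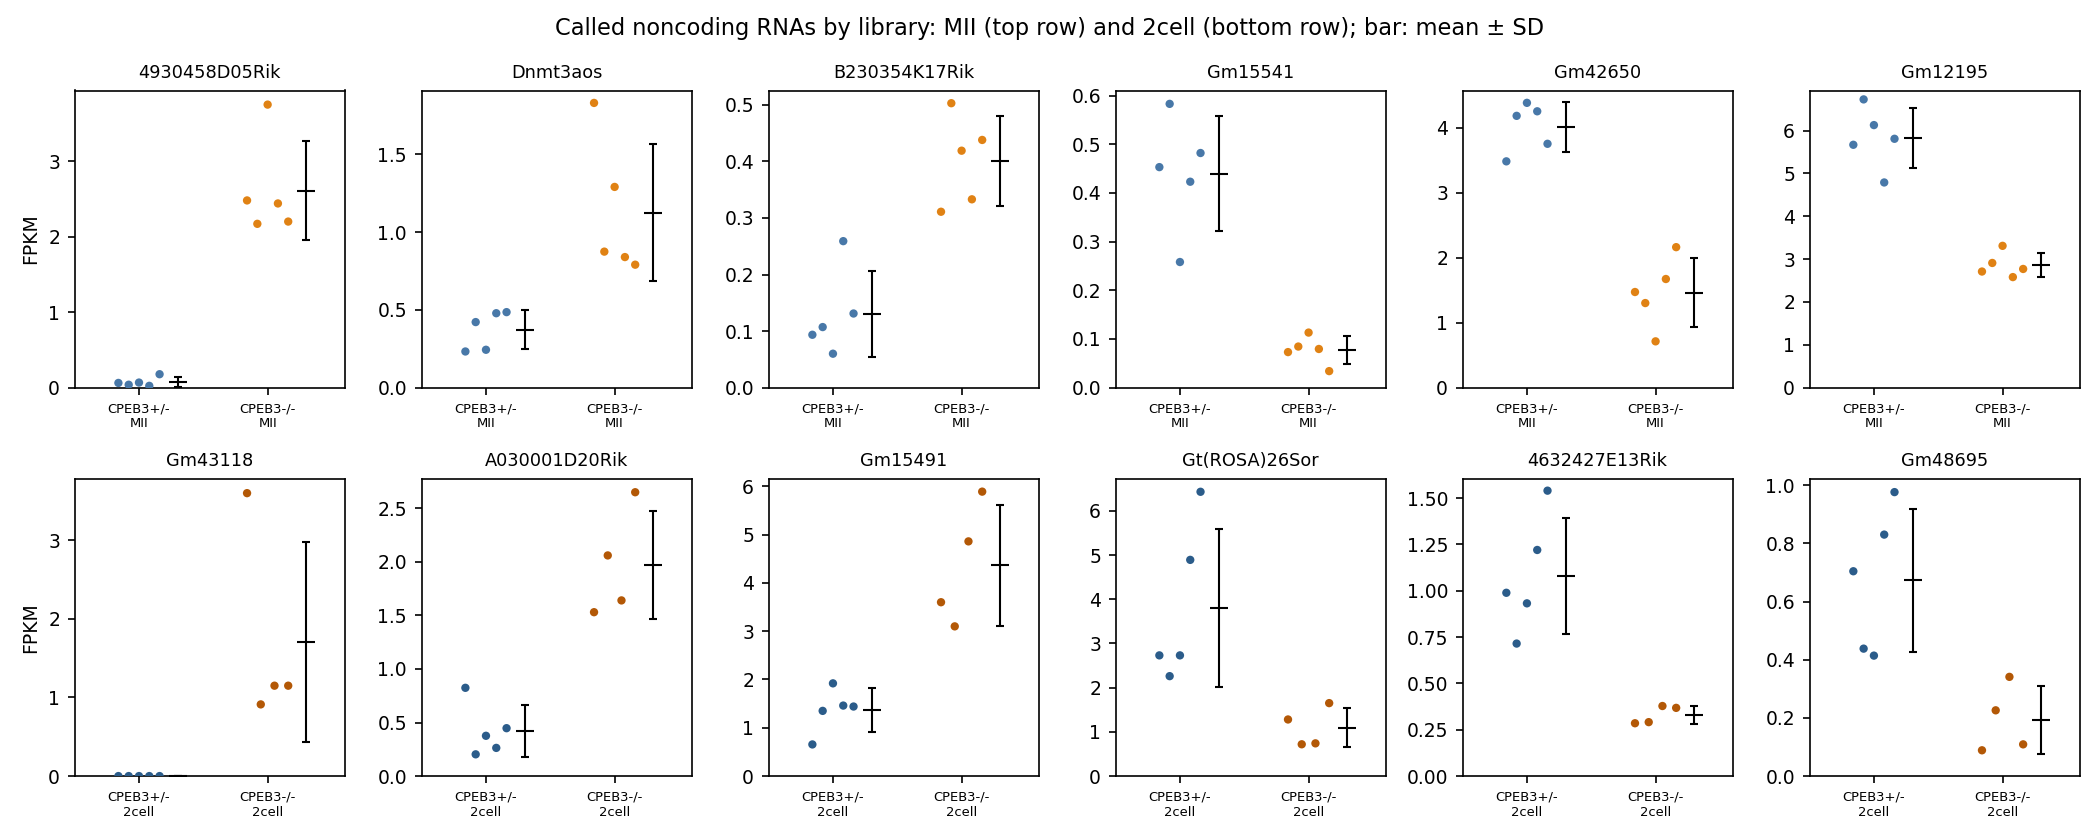
FPKM (vertical axes, from 0) of 12 called noncoding RNAs, 1 point per library, with CPEB3+/- on the left and CPEB3-/- on the right of each panel and bars for mean ± SD; MII is in the top row and 2cell in the bottom row. In all 12 panels the libraries of the genotypes do not overlap, and for Gm43118 the 5 CPEB3+/- values lie at the axis.

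In 2cell embryos, 196 members passed the filter, and 26 were higher and 9 lower in CPEB3-/-, against 8.64% of all 14051 genes called higher and 9.44% called lower. The median log2 difference was 0.15 for the members and 0.00 for all genes. The genotypes did not overlap in 32 of the 196 (16.3%), against 20% of all genes. Of the 35 called, 3 (Gm43118, Gm42650 and Gm16796) reached 0.1 FPKM in at most 1 library of their lower group and had to differ to pass the filter. By type, 24 antisense RNAs were higher and 6 lower, and 2 bidirectional RNAs were higher and 3 lower. Among the 70 without an exon base on a coding exon, 7 were higher and 6 lower, and among the 21 tested with more than 50% of exon bases on coding exons, 6 were higher and 0 lower (limma, adjusted p under 0.05). With scaling to the column sum, which moved the median of all genes to 0.26, the split became 49 higher and 4 lower. Without CPEB3-/- library B or D, the calls fell to 15 higher and 6 lower and to 13 higher and 7 lower. The summed FPKM of the 200 RNAs was 389 to 485 in the CPEB3+/- and 504 to 654 in the CPEB3-/- 2cell libraries, and 224 to 289 and 235 to 300 in MII.

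Gm43118 had the largest difference in 2cell embryos, with 3.60, 0.912, 1.15 and 1.15 FPKM in CPEB3-/- and no more than 9.76e-11 FPKM in any of the 5 CPEB3+/- libraries. Its fitted log2 difference was 3.94 ± 0.332 (adjusted p = 0.000917), a size set by the added 0.1 FPKM. It passed the filter only through the CPEB3-/- libraries, so that a difference was fixed by the filter and the p is no support for it. It is a single exon whose bases lie 100% on exons of Pitpnb, a phosphatidylinositol transfer protein gene, and Pitpnb did not pass the test (log2 difference -0.73, adjusted p = 0.115). A value such as 9.76e-11 FPKM is far below the 0.0453 FPKM that 1 fragment gives for a member of median length, so it is not a count of whole fragments, and how such values were made was not tested. Of the member values, 32 in 12 members were above 0 and below 1e-06 FPKM, and 11 of these 12 have exon bases on a coding exon, against 127 of the 197 members with known exons.

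A030001D20Rik, antisense to the endothelial gene Rasip1, measured 0.824, 0.203, 0.376, 0.263 and 0.447 FPKM in CPEB3+/- and 1.53, 2.06, 1.64 and 2.65 FPKM in CPEB3-/- embryos (log2 difference 2.03 ± 0.334, adjusted p = 0.00451). Gm15491, which overlaps Mgea5, the gene of the enzyme that removes O-GlcNAc, measured 0.655, 1.35, 1.92, 1.46 and 1.44 FPKM against 3.60, 3.10, 4.86 and 5.89 FPKM (log2 difference 1.60 ± 0.273, adjusted p = 0.00517). In both RNAs every CPEB3-/- library was above every CPEB3+/- library, and leaving out any 1 library kept the call. Mgea5 did not pass the test (0.03 on the log2 scale, adjusted p = 0.940), although 73.4% of the exon bases of Gm15491 lie on its exons.

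Gm47512, Gm15879 and Gm47119 were higher by 1.79 ± 0.433 (adjusted p = 0.0190), 1.65 ± 0.414 (adjusted p = 0.0215) and 1.64 ± 0.398 (adjusted p = 0.0191) with no overlap, but each call rested on single libraries. The first 2 were lost without CPEB3-/- library B (or D), with adjusted p values of up to 0.0553 and 0.0618, and Gm47119 without A or B, with up to 0.0524, and also with the GC trend removed (1.31, adjusted p = 0.0630). AV356131, the most abundant member, was higher by 0.70 ± 0.198 (adjusted p = 0.0350), a call kept only when CPEB3+/- library C was left out and lost without any other library, with an adjusted p of up to 0.0979. With the GC trend removed it was 0.39 (adjusted p = 0.152). AC113006.1 was higher by 0.78 ± 0.174 (adjusted p = 0.0138), with 8.03 to 12.6 FPKM in CPEB3+/- and 13.9 to 24.9 FPKM in CPEB3-/- embryos.

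The falls included Gt(ROSA)26Sor, the noncoding RNA of the Rosa26 locus that is widely used for transgene insertion, which overlaps the tRNA methyltransferase gene Thumpd3. It measured 2.73, 2.26, 2.73, 4.89 and 6.43 FPKM in CPEB3+/- and 1.28, 0.719, 0.740 and 1.65 FPKM in CPEB3-/- embryos (log2 difference -1.71 ± 0.342, adjusted p = 0.00901). 4632427E13Rik, head to head with the small GTPase gene Rab30, measured 0.989, 0.715, 0.932, 1.22 and 1.54 FPKM against 0.285, 0.291, 0.378 and 0.368 FPKM (log2 difference -1.45 ± 0.213, adjusted p = 0.00295). Gm48695, which overlaps the start of the centrosome gene Nin, measured 0.704, 0.438, 0.414, 0.830 and 0.976 FPKM against 0.0886, 0.226, 0.341 and 0.109 FPKM (log2 difference -1.46 ± 0.329, adjusted p = 0.0143). None of the 3 overlapped between genotypes, and each call was made in all 9 fits that leave out 1 library. The call of Gm48695 was lost with a pseudocount of 1 and with the replicate block, with an adjusted p of up to 0.112.

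Gm42650 and Gm11413, the latter near the snRNA transcription gene Snapc3, were lower by 1.22 (SE 0.279, adjusted p = 0.0150) and 1.07 (SE 0.232, adjusted p = 0.0123). Gm47027 was lower by 1.12 (SE 0.308, adjusted p = 0.0310), a call lost without CPEB3+/- library B or CPEB3-/- library A, B or D, with an adjusted p of up to 0.0818. Tug1, a long noncoding RNA known from many tissues, fell from 4.98 ± 1.03 (n = 5) to 2.94 ± 0.375 FPKM (n = 4), a log2 difference of -0.76 ± 0.156 (adjusted p = 0.00982). This call was lost with the GC trend removed (-0.32, adjusted p = 0.250), with scaling to the column sum and with the replicate block. The 9 members lower in CPEB3-/- embryos had a median GC content of 44.4%, the 25 higher ones with known exons 50.6% and the 159 not called 50.6%. In MII the medians were 47.5% for the 18 lower, 53.8% for 12 higher and 50.2% for 112 not called. The part of base composition in these calls was covered only by a fit with the GC trend removed, in which 22 of the 31 MII and 23 of the 35 2cell calls were made again and 0 reversed.

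Of the 139 members tested in both stages, 7 were called in both, each time in the same direction. Over all 9335 genes tested in both, 4.51% were called in both in the same direction and 0.214% in opposite directions, so the count of members is near the background. With the GC trend removed, Gm13269, Gm6598 and Gm42650 were called in both, and Gm42650 had passed the 2cell filter through its CPEB3+/- libraries alone. Gm13269, Gm6598, 3010003L21Rik and Gm49521 were higher and Gm42650, Gm47027 and 4933408N05Rik lower in CPEB3-/-, of which 3010003L21Rik, Gm49521 and 4933408N05Rik are named after their values were seen. Gm13269 went from 0.156 ± 0.0237 to 0.385 ± 0.0810 FPKM in MII (n = 5 and 5) and from 0.205 ± 0.0315 to 0.739 ± 0.198 FPKM in 2cell embryos (n = 5 and 4). Gm42650 went from 4.01 ± 0.380 to 1.46 ± 0.528 FPKM in MII and from 0.303 ± 0.124 to 0.0711 ± 0.0363 FPKM in 2cell embryos. With the GC trend removed, the log2 differences of 3010003L21Rik were 0.38 in MII and 0.56 in 2cell embryos (adjusted p = 0.0189 and 0.0741), those of Gm49521 were 0.43 (adjusted p = 0.0443) and close to 0 (adjusted p = 0.998), and the 2cell calls of Gm47027 (adjusted p = 0.0908) and 4933408N05Rik (adjusted p = 0.0697) were lost. Calls of 4 of the 7 depended on single libraries, that of Gm47027 in 2cell embryos as given above. That of 3010003L21Rik in MII was lost without CPEB3-/- library A, where the difference fell under 1.5-fold. That of Gm49521 was lost in MII without CPEB3+/- library C (adjusted p = 0.0508) and in 2cell embryos without any library but CPEB3+/- A (up to 0.114), and that of 4933408N05Rik in 2cell embryos without CPEB3+/- B or CPEB3-/- A, B or D (up to 0.0752). A further 57 members passed the filter in 2cell embryos only and 4 in MII only.

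**Figure D4:**
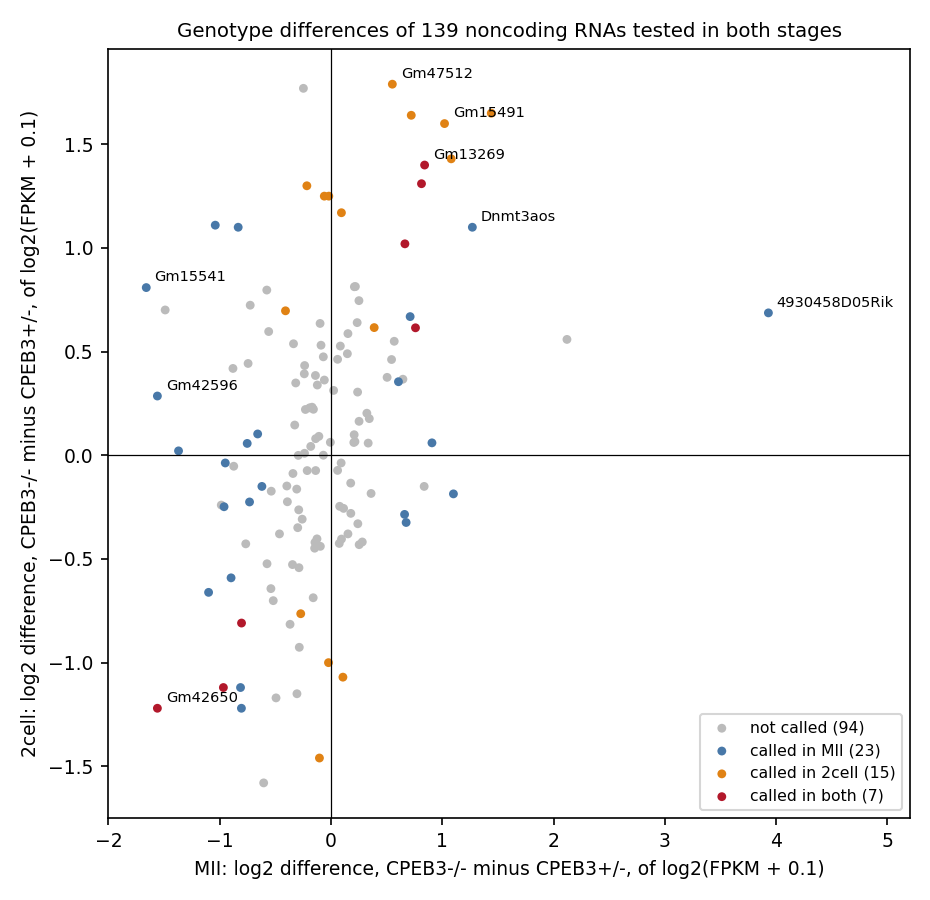
Log2 difference between CPEB3-/- and CPEB3+/- in MII (horizontal axis) and 2cell embryos (vertical axis), on log2(FPKM + 0.1), for the 139 noncoding RNAs tested in both stages; colours give the calls. The 7 RNAs called in both stages lie in the upper right or lower left corner, and 4930458D05Rik lies alone at 3.93 on the MII axis.

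Whether a genotype difference itself differed between the stages was tested as an interaction over all 4 groups. All 200 members passed its filter, and the log2 difference was higher in 2cell than in MII for 10 and lower for 7, against 3.41% and 4.74% of 15786 genes. With scaling to the column sum, which moved the median of all genes to 0.12, it was 17 and 7. The 3 largest of each direction were Gm43118 (4.03 ± 0.420, a description, since it passed the filter only through the 4 CPEB3-/- 2cell libraries), A030001D20Rik (2.53 ± 0.558, adjusted p = 0.00917) and Gm15541 (2.48 ± 0.350, adjusted p = 0.000381), and 4930458D05Rik (-3.32 ± 0.424, adjusted p = 0.000165), Gt(ROSA)26Sor (-1.71 ± 0.367, adjusted p = 0.00770) and 4632427E13Rik (-1.45 ± 0.220, adjusted p = 0.000623). Gm43118, A030001D20Rik, Gt(ROSA)26Sor and 4632427E13Rik were too low in MII to be tested there, and their 2cell differences alone were 3.94, 2.03, -1.71 and -1.45. Gm15541 was lower in CPEB3-/- oocytes and at 0.862 to 2.10 FPKM in CPEB3+/- and 1.29 to 3.56 FPKM in CPEB3-/- embryos. AV356131 had an interaction of 1.08 ± 0.275 (adjusted p = 0.0205), with MII genotypes that overlapped.

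Each member was next compared with its coding neighbour in the same libraries, through the difference of their log2(FPKM + 0.1) from the values as deposited, in which the scaling of a library cancels only for levels well above 0.1 FPKM. With scaling by trimmed means 8, 15 and 95 of the 8, 15 and 96 calls in MII, 2cell and between the stages were made again, and with scaling to the column sum 7, 15 and 94. In MII, 87 members could be paired with a neighbour that passed the filter. Relative to the neighbour, 2 were higher and 6 lower in CPEB3-/-, against 2.04% and 4.76% of all 147 such antisense and bidirectional pairs. This balance turned to 7 higher and 3 lower with a filter at 1 FPKM and to 5 higher and 4 lower with a pseudocount of 1. In 2cell embryos it was 12 higher and 3 lower of 134, against 7.91% and 1.27% of 316 pairs. Between the stages in CPEB3+/- it was 63 higher and 33 lower in 2cell of 132, against 47.5% and 22.5% of 236 pairs. All these backgrounds include the members' own pairs. Among the pairs of RNAs ranked below the members, 1 was higher and 1 lower of 60 in MII. The counts there were 13 and 1 of 182 in 2cell embryos, and 49 and 20 of 104 between the stages. Leaving out the CPEB3+/- library E or any one of the CPEB3-/- libraries A, B, C or D moved the 2cell count of members from 15 to 8, 6, 8, 5 or 6.

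6330562C20Rik shows a neighbour that changed beside a member that did not pass the test. In MII it had 2.53 ± 0.663 FPKM (n = 5) in CPEB3+/- and 2.40 ± 0.572 FPKM (n = 5) in CPEB3-/- libraries, while Cers2, the ceramide synthase gene across its start, had 2.27 to 2.69 FPKM against 0.783 to 1.10 FPKM (log2 difference -1.44, adjusted p = 6.54e-05). The ratio was higher by 1.29 ± 0.251 on the log2 scale (adjusted p = 0.00837). The ratio of Dnmt3aos to Dnmt3a was higher by 1.08 ± 0.215 (adjusted p = 0.00837), a call lost with a pseudocount of 1 and with the replicate block (adjusted p of up to 0.0664). Of the 8 ratio calls in MII, 1 was made again with the replicate block. For B230354K17Rik to Cdc5l the ratio was lower by 2.46 (SE 0.369, adjusted p = 0.00417), since Cdc5l rose more than its partner. Gm42596, 4930515G01Rik and Gm42650 were lower relative to Fbrsl1, Ankrd13a and Egf by 2.08, 1.62 and 1.14 (adjusted p = 0.00837 for each). Gm42596 and 4930515G01Rik entered this test through their CPEB3+/- libraries, so their lower ratios were largely fixed by the filter.

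Gm20337 and Srsf5, which codes for a splicing factor, share no exon bases. Gm20337 measured 1.81, 3.0, 3.49, 3.85 and 3.12 FPKM in CPEB3+/- and 3.80, 5.46, 4.42 and 4.22 FPKM in CPEB3-/- embryos and did not pass the test alone (log2 difference 0.53 ± 0.201, adjusted p = 0.0944). Srsf5 measured 17.5, 21.0, 17.8, 25.2 and 23.9 FPKM against 9.29, 6.38, 6.99 and 7.66 FPKM (log2 difference -1.50, adjusted p = 0.00109). The ratio was higher by 2.03 ± 0.332 (adjusted p = 0.00308), and leaving out any 1 library kept the call. The 102 bases printed above separate the 2 starts.

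AV356131 and Pik3c2a moved apart in the same way. Pik3c2a measured 0.782, 0.816, 0.768, 0.864 and 0.805 FPKM in CPEB3+/- and 0.512, 0.388, 0.438 and 0.545 FPKM in CPEB3-/- embryos (log2 difference -0.71, adjusted p = 0.00928), and the ratio was higher by 1.41 ± 0.250 (adjusted p = 0.00437), a call lost with a pseudocount of 1 (adjusted p = 0.156). This was the 1 pair of members and neighbours called in opposite directions in 2cell embryos. The pairs called in the same direction numbered 3, where 24 members and 21 neighbours of 134 pairs were called. D430020J02Rik and the condensin gene Ncapg2 were both lower, at 4.16 ± 0.715 against 2.16 ± 0.779 FPKM and at 1.55 ± 0.147 against 0.998 ± 0.117 FPKM (n = 5 and 4). The call of D430020J02Rik (-1.0 ± 0.258, adjusted p = 0.0241) was lost without CPEB3+/- library B or E or CPEB3-/- library A or B, with an adjusted p of up to 0.0653. Gm11413 and Snapc3 were both lower, and Gm44709 and the elongation factor gene Supt5 both higher, the last with 96.7% of the exon bases of the noncoding RNA on exons of Supt5. D430020J02Rik and Gm44709 were named after their values were seen.

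Of the other ratios called in 2cell embryos, Gm43118 to Pitpnb was the largest (4.66 ± 0.465), with the shared exon described above and a higher ratio that was fixed by the filter, which Gm43118 passed through its CPEB3-/- libraries alone. The ratio of A630072M18Rik to Rsbn1l (2.04 ± 0.544, adjusted p = 0.0351) and that of 1810013D15Rik to Cth, the cystathionine gamma-lyase gene (1.97 ± 0.568, adjusted p = 0.0488), were each lost without most single libraries (CPEB3+/- E and all 4 CPEB3-/- libraries for the first, CPEB3+/- A, B and E and all 4 CPEB3-/- libraries for the second), with an adjusted p of up to 0.0909 and 0.121. The ratios of Gt(ROSA)26Sor to Thumpd3, 1700008J07Rik to the chromatin remodeller gene Srcap and Tug1 to Morc2a were lower by 1.51 (adjusted p = 0.0175), 1.28 (adjusted p = 0.0389) and 1.09 (adjusted p = 0.0271). The first was lost without CPEB3-/- library A or B, with an adjusted p of up to 0.0551. The second was kept only without CPEB3+/- library B or C, and the third only without CPEB3+/- library A, C or D, with adjusted p values elsewhere of up to 0.117 and 0.0889.

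Between the stages, 99 members and 91 neighbours of 132 pairs were called. The member and the neighbour of 48 pairs were both called in the same direction and of 25 in opposite directions. Whether these counts exceed what the separate shares give was not tested. By shared exon bases, the same and opposite directions numbered 10 and 12 of 35 pairs with none, 31 and 12 of 78 with up to 50%, and 6 and 0 of 17 with more than 50%, besides 1 and 1 of the 2 pairs without known exon positions. Pearson's correlation of the 2 log2 differences across these pairs was 0.05, 0.42 and 0.60, given as a description since the pairs come from the same 10 libraries and overlapping genes can share reads. Among the pairs without shared bases, 2900093K20Rik and Oser1 both rose (log2 differences 4.44 and 2.16), as did AV356131 and Pik3c2a (2.46 and 0.80). Gm29361 rose by 2.01 ± 0.248 while Rbm25 fell by 1.74, with 8.30% of the exon bases of Gm29361 on Rbm25 exons. For genotype, the pairs with both genes called were 1 of 87 in MII and 4 of 134 in 2cell embryos. Of the 87 pairs, 14 members and 7 neighbours were called, and of the 134 pairs, 24 members and 21 neighbours. Whether the pairs with both called exceed what these shares give was not tested. The stage and MII comparisons share the 5 CPEB3+/- MII libraries, and the stage and 2cell comparisons the 5 CPEB3+/- 2cell libraries.

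**Figure D5:**
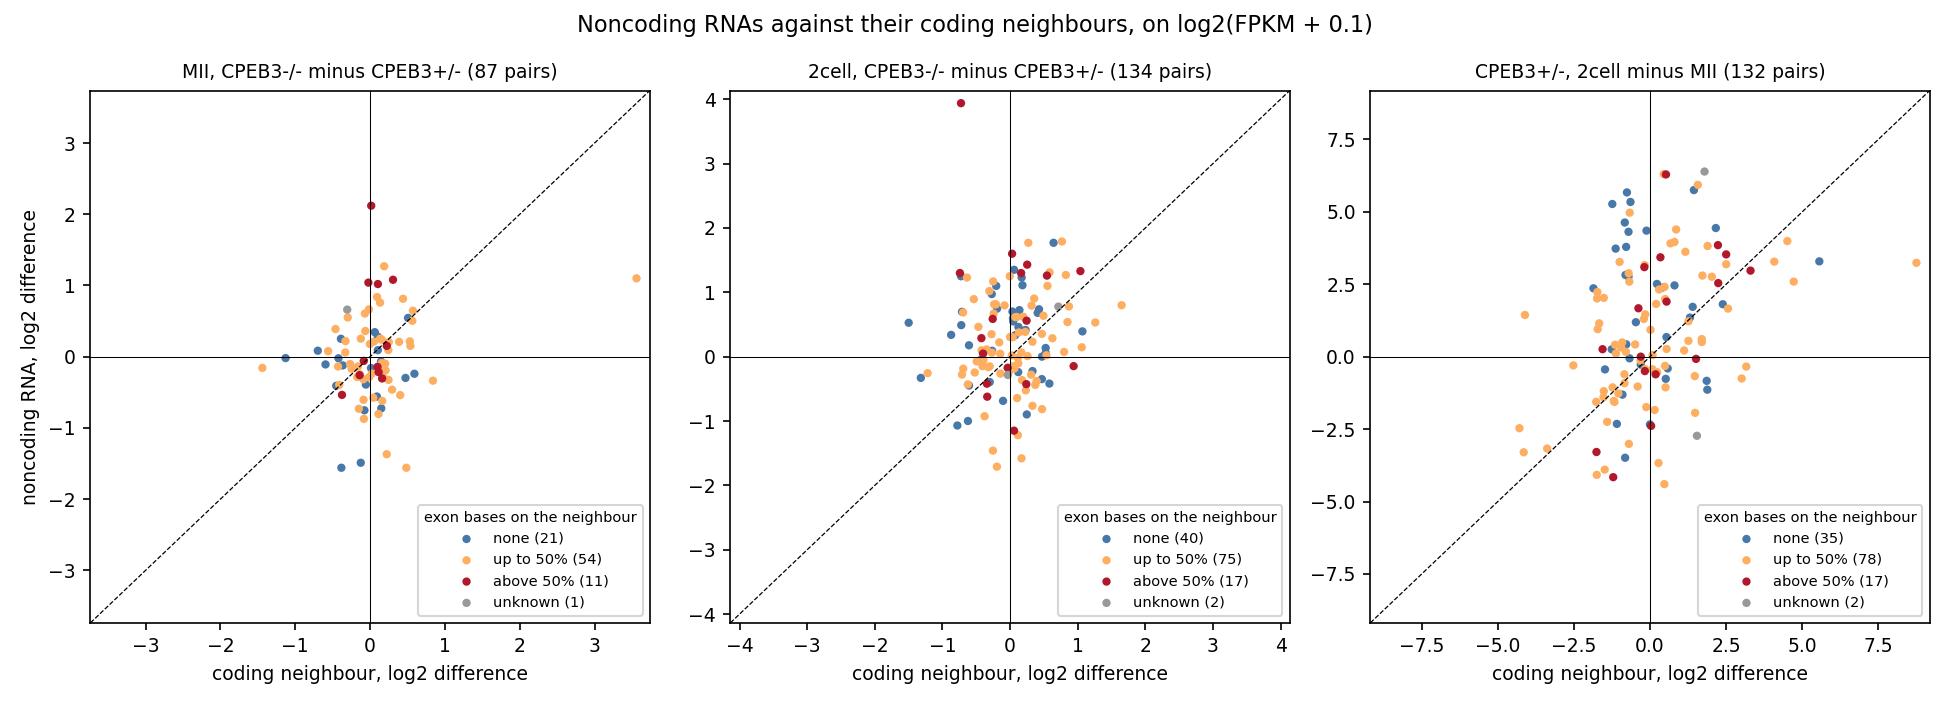
Log2 difference of each noncoding RNA (vertical axis) against that of its coding neighbour (horizontal axis), on log2(FPKM + 0.1), for the genotype in MII (87 pairs) and 2cell embryos (134 pairs) and for the stage in CPEB3+/- (132 pairs); colours give the share of the noncoding RNA's exon bases on exons of the neighbour and the dashed line marks equal differences. Points with no shared bases scatter on both sides of the dashed line in the stage panel, where 10 such pairs were called in the same and 12 in opposite directions.

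The genes that act on such transcripts were described from 2 lists. Of 30 gene symbols of nuclear RNA decay and early termination (the exosome, its cofactors and the cap-binding and integrator proteins), 27 were in the table. The others, Mtrex, Tent4b and Cpsf3l, are second names of the listed Skiv2l2, Papd5 and Ints11, so no gene of this list was missing. In MII, 1 of 24 tested was higher in CPEB3-/-, the poly(A)-binding protein gene Pabpn1 (log2 difference 0.77, adjusted p = 0.0358), and 1 lower, the exosome adaptor gene Rbm7 (-0.67, adjusted p = 0.00264). In 2cell embryos 2 of 27 were higher and 4 lower. The calls in either direction over all genes were 12.9% in MII and 18.1% in 2cell embryos, so the share of the list called was below the first and near the second. The lower ones were the exosome subunit gene Exosc9 (-0.95, adjusted p = 0.0328), the helicase gene Skiv2l2 (-0.76, adjusted p = 0.00843), Pabpn1 (-0.80, adjusted p = 0.00714) and the cap-binding gene Ncbp2 (-0.82, adjusted p = 0.00835). The higher ones were Zc3h18 (0.83, adjusted p = 0.00819) and Setd1a (0.87, adjusted p = 0.0223). The median log2 difference of the list was -0.09 in MII and -0.21 in 2cell embryos, against 0.01 and 0.00 for all genes. Of 18 genes of double-stranded RNA handling, 17 were in the table. In 2cell embryos the helicase gene Dhx9 was lower in CPEB3-/- (-1.10, adjusted p = 0.00280), 1 of 11 tested with 0 higher. A relation of these genes to the noncoding RNAs was not tested.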

How the data were processed

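RNA of MII oocytes and 2cell embryos was sequenced in 19 libraries, and groups were taken from the library labels. Reads were trimmed by the authors (Trim Galore 0.4.1), mapped to GRCm38 with HISAT2 (2.0.5 in the submitters' processing notes) and deposited FPKM values, 1 column per library, which the methods say were computed in SeqMonk; values above 0 but far below 1 fragment do not come from counting whole fragments, so how the values were made is uncertain, and the annotation and the strand setting are not given in the sources used here, and the methods and labels differ on the number of replicates and the sequencer. The table holds 0 unused value columns. Depth, estimated from the steps between low values, was 17150000 to 23500000 fragments, a rough figure because only 43.3% to 47.4% of low values came within 0.05 of whole fragment numbers; 1 fragment is then worth 0.0453 FPKM for a member of median length, so values near this level rest on few fragments.

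The members and the gene lists were chosen with earlier results of these data known. Exon positions came from GENCODE vM21, in which 197 members were matched, 194 of them with the same coordinates. FPKM were scaled per library by trimmed means of log ratios (30% of ratios and 5% of levels trimmed) and tested as log2(FPKM + 0.1) with limma 3.58.1 in R 4.3.3, two-sided, with Benjamini-Hochberg adjustment over all genes at or above 0.1 FPKM in at least 5 libraries (MII and stage) or 4 (2cell and interaction). The ratio to the neighbour was taken from the unscaled values and tested over all antisense and bidirectional pairs with both genes past the filter. A call required more than a 1.5-fold difference and an adjusted p below 0.05. The neighbour was the opposite-strand coding gene with the longest body overlap, or else (and for every bidirectional RNA) the one with the nearest start. The procedure was tested on simulated data. Members named were the 10 highest, up to 6 rises and 6 falls per stage without overlap between genotypes, up to 4 each by ratio and between stages, 3 per direction of interaction, those near rank 200, and host genes. A further 6 rows with several joined biotypes were left out. Alternatives covered scaling, pseudocount, filter, GC trend, a replicate block, each library left out, exon overlap, 100 members and another neighbour rule; scaling to the column sum, the scalings of the ratio and the GC trend for the interaction were added after seeing the data. The MII result of the list of double-stranded RNA handling is not reported here.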

Additional observations from a re-analysis of the deposited data

Results flagged for a closer look

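A library far from the others of its group by Dixon's 95% limit was found in 8 of the 136 groups of named members that reached 0.5 FPKM, where chance gives about 1 in 20. In CPEB3-/- MII oocytes, library C had 3.75 FPKM of 4930458D05Rik (others 2.17 to 2.48) and library A 0.531 FPKM of 1700008J07Rik (others 0.00 to 0.108). In CPEB3+/- 2cell embryos, library C had 2.10 FPKM of Gm15541 (others 0.862 to 1.21) and 12.5 FPKM of Gm42596 (others 7.39 to 8.43), and library E 0.768 FPKM of Gm47512 (others 0.0640 to 0.233). In CPEB3-/- 2cell embryos, library A had 3.60 FPKM of Gm43118 (others 0.912 to 1.15), library B 0.105 FPKM of Gm16144 (others 0.524 to 0.586) and library D 5.54 FPKM of 1810013D15Rik (others 1.65 to 2.05).

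The 6 RNAs with the largest interaction in limma (3 per direction, adjusted p under 0.05) were named for that size, so their values are a description. Gm43118, A030001D20Rik, Gt(ROSA)26Sor and 4632427E13Rik were too low in MII to be tested there, and their 2cell differences alone were 3.94, 2.03, -1.71 and -1.45. Gm43118 passed the filter only through the 4 CPEB3-/- 2cell libraries, which fixed the direction of both its values. The 2cell log2 difference exceeded that of MII by 4.03 for Gm43118, 2.53 for A030001D20Rik and 2.48 for Gm15541. It was below that of MII for 4930458D05Rik (-3.32), Gt(ROSA)26Sor (-1.71) and 4632427E13Rik (-1.45).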

How the results depend on the processing

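No call among the genotype comparisons or the interaction was reversed by any alternative. The counts of called members moved by more than 1.5 times as follows. In MII (31 calls), a filter at 1 FPKM gave 15, a pseudocount of 1 gave 6, members without exon overlap with a coding gene gave 11 and the 100 most abundant members gave 17. In 2cell embryos (35), removing the GC trend gave 23, the column sum 53, members without exon overlap 13 and 100 members 22. Between the stages (97 higher, 52 lower), the filter at 1 FPKM gave 83 and members without exon overlap 52. For the interaction (17), a pseudocount of 1 gave 26 and members without exon overlap 6. For the ratio to the neighbour, no filter gave 21 in MII (8), and the filter at 1 FPKM gave 23 between the stages (96); 1 stage ratio was called in the opposite direction with the nearest coding gene body as neighbour. Restricting the members or the filter leaves fewer RNAs to test; for the other settings the cause was not tested. Leaving out 1 library at a time gave 23 to 31 calls in MII, 20 to 40 in 2cell, 143 to 152 between the stages, 14 to 21 for the interaction, and 7 to 10, 5 to 22 and 94 to 104 for the 3 ratios; in 2cell embryos the count fell by over 1.5 times without CPEB3-/- library B (21) or D (20). The labels do not say whether replicate letters pair the libraries. Deviations of same-lettered libraries correlated between -0.233 and 0.149, which cannot settle this, since libraries of different letters were not compared. A replicate block gave 21 calls in MII, 11 in 2cell, 147 between the stages and 15 for the interaction, and 1, 4 and 97 for the ratios. RNAs near 0.1 FPKM rest on a few fragments, so a missing call there is not evidence of no difference.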
